A study of Mus musculus with 2 samples.

Results

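Insulin, PI3-kinase, mTORC1 and FOXO signalling genes were examined in RNA sequencing libraries of intestinal stem cells from fed and fasted mice. The members were a list of 43 genes, chosen by name from the pathway's receptors to its targets. All 43 were found among the 45706 gene IDs of the count files, and all 43 passed the filter for measured genes (12026 in all), set at a mean level of 1 CPM (counts per 1000000 library counts) with 20 or more reads in the libraries together. Both groups of mice carried the Lgr5-EGFP-IRES-creERT2 allele, which puts a green fluorescent protein under the control of the stem cell gene Lgr5, and both were 4 months old. The fed group ate standard chow ad libitum and the fasted group is labelled only as fasting. GFP-high cells were collected into Trizol, and 1 library was made per group. How long the mice fasted, how many mice stand behind a library and their sex are not stated in the labels.

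Insulin and insulin-like growth factors bind the receptors encoded by Insr and Igf1r. Through adaptor proteins of the IRS family these switch on PI3-kinase, whose lipid product lets PDK1 activate the AKT kinases. AKT relieves the brake that the TSC complex puts on RHEB, an activator of the protein kinase complex mTORC1, and it sends FOXO transcription factors out of the nucleus. Amino acids act on mTORC1 through the Rag GTPases. When insulin and nutrients are scarce, AKT and mTORC1 activity decline and FOXO factors can switch on their target genes. In the crypt, nutrient state is known to reach stem cells in part through mTORC1 in the neighbouring Paneth cells. Most of this control acts on proteins, by phosphorylation, which RNA levels do not record.

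The fed library held 6985316 counts and the fasted library 5020056. Counts were divided by a size factor per library (1.19 and 0.842), and the resulting scaled counts were compared as the log2 ratio of fasted to fed, with an exact 95% interval that covers counting error only. Since each group had 1 library, no test could be made, and each difference describes these libraries only. "Higher" and "lower" are used of a gene past a stated fold whose interval excludes a ratio of 1. The sorted cells had their defining markers: Lgr5 had 3381 fed and 1709 fasted counts. Over 10 stem cell markers the summed level was 17692 CPM fed and 10900 CPM fasted, of which Olfm4 alone made up 14373 and 8257 CPM. Their median log2 ratio was -0.39, and 2 of the 10 were at least 1.5-fold lower, against 5.05% of all measured genes. Intervals lay below a ratio of 1 for 9 of the 10, against 19.2% of all measured genes. Over 16 enterocyte markers the summed level was 1261 and 2356 CPM. Of the 16, 13 were at least 1.5-fold higher, against 5.11% of all measured genes. Goblet cell markers summed to 575 and 1163 CPM, and Paneth cell markers to 1109 and 967 CPM. The Paneth cell sum hides a split, since 7 of 8 markers had a negative ratio. Of the 8, 1 was at least 1.5-fold higher and 2 were lower, against 5.11% and 5.05% of all measured genes. Of 6 stromal markers none reached 1 CPM in either library, with Col3a1 and Pdgfra at 0 in both, and of 6 immune markers the highest level was 3.58 CPM. The part of these marker differences in any result below was not tested. In RNA from pooled cells, fewer cells of a type and less RNA per cell cannot be told apart.

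Gene expression across the pathway was nearly level between the libraries. At the 2-fold threshold 1 of 43 members was higher in the fasted library, Klf15 (2.33% of members, against 2.51% of all measured genes), and 1 was lower, Irs1 (2.33% against 1.91%). At 1.5-fold, 2 members were higher, Ddit4 and Klf15 (4.65% against 5.11% of all measured genes), and 2 were lower, Irs1 and Sesn3 (4.65% against 5.05%). These shares lie close to those of the whole table, so the counts set the list apart from other genes in neither direction. The median log2 ratio was 0.01 for the 43 members and -0.02 for all measured genes. Of the members 23 had a positive and 20 a negative ratio.

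How firmly each gene was placed depended on its reads, which ranged from 36 for Klf15 to 7040 for Txnip, summed over both libraries. For 36 members (83.7%) the whole counting interval lay within 1.5-fold of equality, as it did for 57.6% of measured genes. The 7 others were Irs1, Tbc1d7, Eif4ebp1, Ddit4, Sesn3, Klf15 and Ccng2. Intervals lay wholly above a ratio of 1 for 6 members (13.95%, against 16.7% of measured genes) and wholly below it for 6 (13.95% against 19.2%). The median absolute log2 ratio was 0.12 for members and 0.21 for all measured genes. Members had more reads than most genes, a median summed count of 735 against 473. Among the 4312 measured genes with at least 735 reads the median absolute log2 ratio was 0.15, and it was 0.11 for the 22 members with as many.

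**Figure D1:**
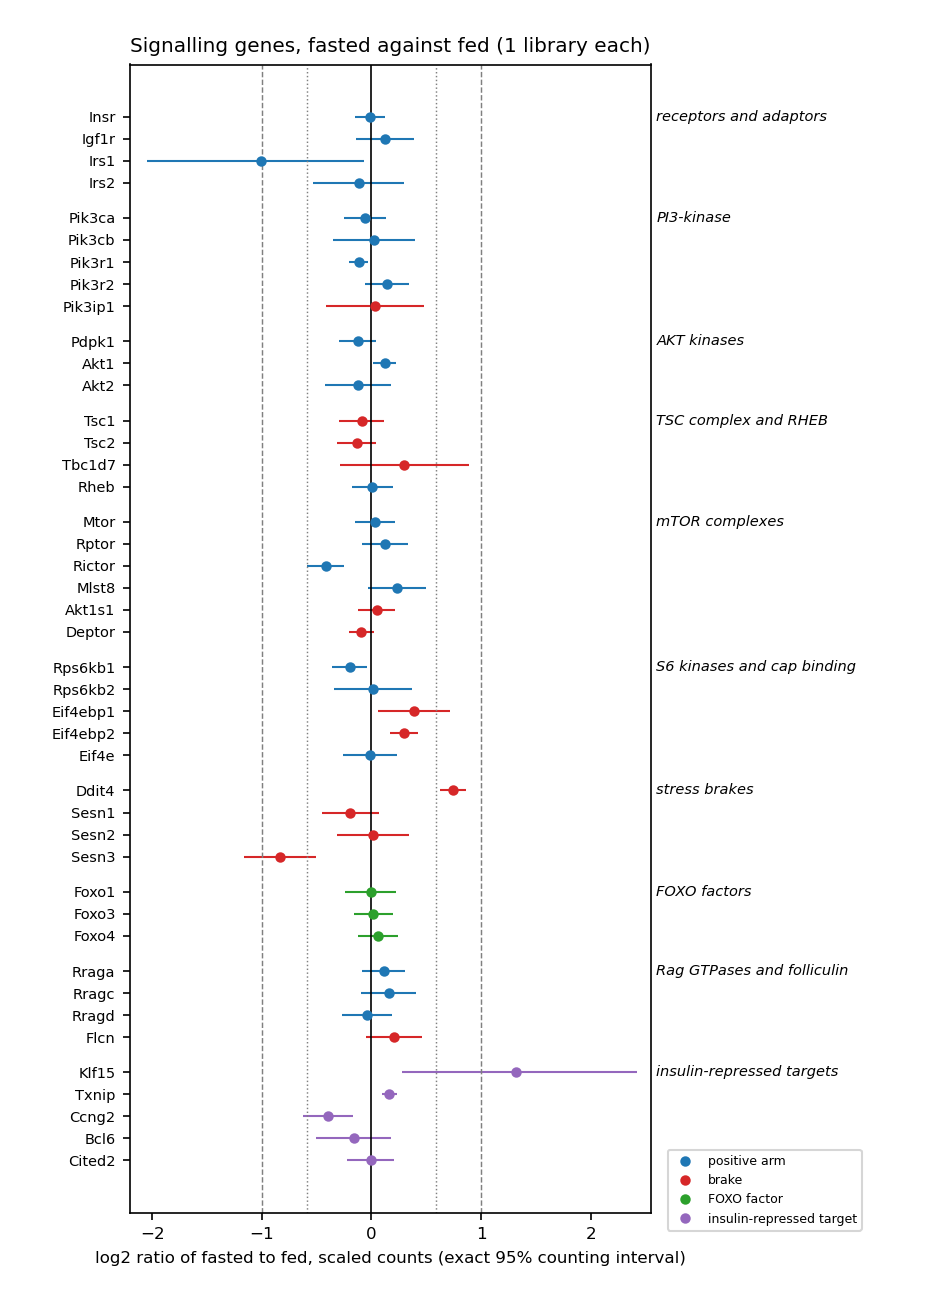
The log2 ratio of fasted to fed for each of the 43 genes, grouped by role, with points for the ratio and bars for the exact 95% counting interval. Dotted and dashed lines mark 1.5-fold and 2-fold. Klf15 at 1.32 and Irs1 at -1.01 lie past 2-fold with wide bars, and Ddit4 at 0.74 and Sesn3 at -0.83 lie past 1.5-fold.

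Promoter sequences were examined for the short motifs through which insulin and nutrient state are known to act. FOXO factors bind the core GTAAACA, an insulin response element holds CAAAACA, and the E-box CACGTG, with its longer form TCACGTGA, is bound by factors that include MYC, TFEB and the clock proteins. RefSeq promoters of the build GRCm38.p6, from 250 bases before to 50 after a transcript start, were found for 38 of the 43 members (47 promoters). Both strands were searched, and the longer E-box contains the shorter. The FOXO core was in 3 of 47 member promoters (6.38%) and in 3.65% of all 32851 promoters in the table. These were promoters of Akt1, Sesn1 and Txnip. The insulin response core was in 3 (6.38%, against 6.28% of all), those of Irs1, Irs2 and Ccng2. The E-box was in 9 (19.1% against 7.15%), those of Bcl6, Cited2, Eif4e, Irs1, Irs2, Klf15, Rheb, Rragc and Tbc1d7. Member promoters were richer in G and C, with a median of 63.3% against 52.7% for all promoters and 58.0% for all that hold an E-box. The longer form was in 1 member promoter (2.13% against 0.974%), that of Klf15. A match describes letters in the window and shows no binding.

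The promoters of Klf15, Txnip and Irs1 are shown because Klf15 and Irs1 were the members past 2-fold, in opposite directions, and Txnip is the insulin-repressed target with the FOXO core. Each runs from 250 bases before the RefSeq start to 10 after it, with motif matches in capitals. Klf15 lies at chr6:90462326-90462585 on the plus strand and holds 3 E-boxes, the last of them the longer form across the start itself. Txnip lies at chr3:96557707-96557966 on the plus strand and has GTAAACA from -121 to -115. Irs1 lies at chr1:82291430-82291689 on the minus strand, where an E-box at -115 to -110 overlaps an insulin response core on the opposite strand, and a further core lies at -32 to -26.
Klf15: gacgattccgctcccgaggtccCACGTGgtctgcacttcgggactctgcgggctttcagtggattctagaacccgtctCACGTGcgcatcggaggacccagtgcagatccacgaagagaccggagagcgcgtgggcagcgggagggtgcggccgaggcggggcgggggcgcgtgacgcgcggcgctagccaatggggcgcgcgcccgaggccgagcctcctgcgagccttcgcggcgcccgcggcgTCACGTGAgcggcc
Txnip: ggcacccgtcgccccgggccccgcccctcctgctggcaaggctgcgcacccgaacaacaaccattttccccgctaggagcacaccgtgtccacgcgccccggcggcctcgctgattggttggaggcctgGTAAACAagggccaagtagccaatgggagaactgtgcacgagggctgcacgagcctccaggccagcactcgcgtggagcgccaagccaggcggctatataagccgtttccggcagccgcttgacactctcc
Irs1: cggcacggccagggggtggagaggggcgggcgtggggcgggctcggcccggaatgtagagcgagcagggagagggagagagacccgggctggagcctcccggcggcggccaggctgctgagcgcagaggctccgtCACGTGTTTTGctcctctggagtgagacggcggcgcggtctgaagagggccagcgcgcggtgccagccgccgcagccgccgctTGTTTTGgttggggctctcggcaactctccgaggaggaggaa

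Ddit4 and Sesn3, the other members past 1.5-fold, held none of the 4 motifs in their RefSeq windows. The 9 members with an E-box ranged in log2 ratio from -1.01 for Irs1 to 1.32 for Klf15. Between them lay Bcl6 at -0.16, Irs2 at -0.12, Cited2 and Eif4e at -0.01, Rheb at 0.01, Rragc at 0.16 and Tbc1d7 at 0.30. Whether the motifs bear on the ratios was not tested.

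Receptors and adaptors were level except for Irs1. Insr, the insulin receptor gene, had 1061 fed and 746 fasted counts, or scaled counts of 893 and 887 (log2 ratio -0.01, interval -0.15 to 0.13). Igf1r, the receptor for insulin-like growth factors, had 281 and 217 counts (0.13, -0.14 to 0.39). Both counting intervals therefore lay within 1.5-fold of equality. Per kilobase of exon, Insr took 82.2% (80.2 to 84.1) of the reads of the pair in the fed and 80.8% (78.3 to 83.1) in the fasted library, so that the insulin receptor transcript was the more abundant in both, with intervals that overlapped.

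Irs1 and Irs2 encode the adaptors that couple these receptors to PI3-kinase. Irs1 (chromosome 1, 82233101 to 82291416, GRCm38) had 37 fed and 13 fasted counts and was 2.02-fold lower, with a log2 ratio of -1.01 and an interval from -2.05 to -0.07. Irs2 had 127 and 83 counts, a log2 ratio of -0.12 (-0.53 to 0.29). Irs1 was the scarcer of the pair. Its share of reads per kilobase was 16.8% (12.0 to 22.6) fed and 9.77% (5.25 to 16.4) fasted, and these intervals overlap as well. The 2-fold call for Irs1 rested on few reads. The ratio lies at the threshold: upper-quartile scaling gave -0.99, which ends the 2-fold call and keeps that at 1.5-fold, and correction for exon length gave -0.90 with an interval that reached 0.04. An antisense gene model, Gm9747, covers 30.9% of the Irs1 exons and had 0 counts in both libraries.

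Among the genes of PI3-kinase, which makes the lipid signal PIP3, all 5 stayed within 1.5-fold. The regulatory subunit gene Pik3r1 was by far the most abundant of them, with 3010 and 1965 counts (log2 ratio -0.12, -0.20 to -0.03). The other regulatory subunit gene, Pik3r2, had 475 and 372 counts (0.15, -0.05 to 0.34). Per kilobase, Pik3r1 took 72.4% (70.4 to 74.3) of the pair in the fed and 68.6% (66.2 to 71.0) in the fasted library. The catalytic subunit genes Pik3ca, with 551 and 374 counts (-0.06), and Pik3cb, with 146 and 105 (0.02), kept nearly the same division (Pik3ca 74.9% and 73.8% per kilobase). Pik3ip1, which encodes a membrane protein that inhibits PI3-kinase, had 102 and 74 counts (0.03, -0.42 to 0.48).

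The kinases downstream were level too. Pdpk1, the gene of PDK1, had 725 and 471 counts (-0.12, -0.29 to 0.04). Akt1 had 1732 and 1335 counts (0.12, 0.02 to 0.23) and Akt2 235 and 153 (-0.12, -0.42 to 0.18). Akt1 supplied most AKT transcript, at 92.8% (91.8 to 93.7) of the reads per kilobase of the pair fed and 93.8% (92.8 to 94.8) fasted. Akt2, the form that carries much of insulin's metabolic action in liver and muscle, was the minor one in these cells.

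**Figure D2:**
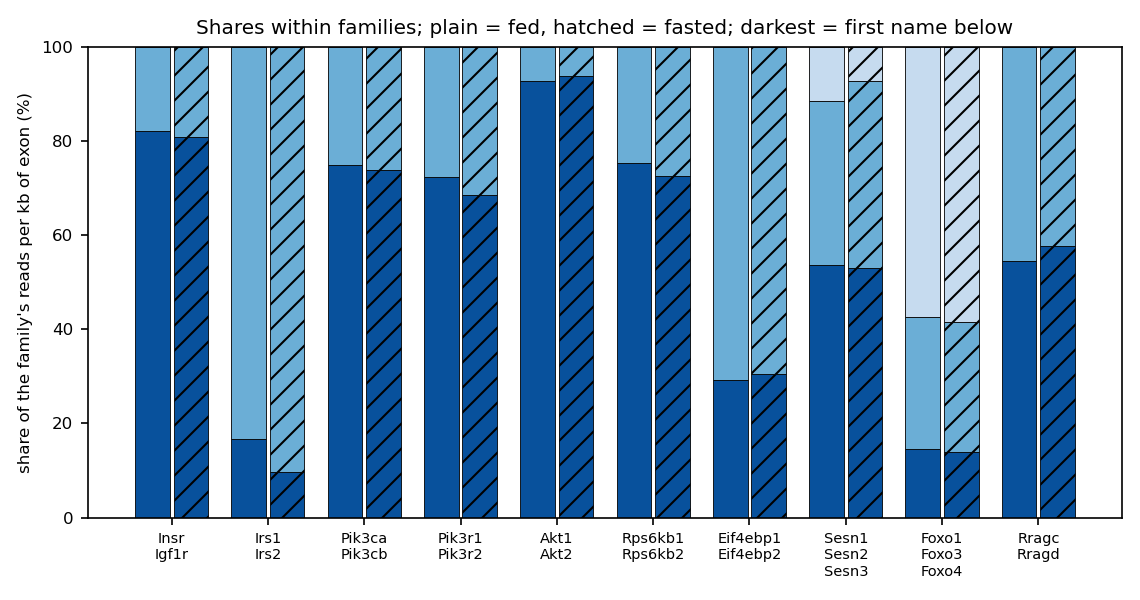
Share of each gene in the reads per kilobase of exon of its family (percent), for the fed library (plain bars) and the fasted library (hatched bars), stacked from the first name at the bottom. Akt1 took 92.8% and 93.8% of its pair and Insr 82.2% and 80.8%, while Irs1 took 16.8% and 9.77%.

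The TSC complex keeps RHEB inactive when growth signals fail. Its subunit genes Tsc1 and Tsc2 had 488 and 325 counts (-0.09) and 646 and 417 counts (-0.13), and both counting intervals lay within 1.5-fold. Tbc1d7, the third subunit, had only 55 and 48 counts and a wide interval (0.30, -0.29 to 0.89), which allows a fold of up to 1.85 and does not settle a direction. Rheb itself had 547 and 390 counts (0.01, -0.18 to 0.20). Of these 4 genes none passed 1.5-fold. Exons of Pkd1, on the other strand, cover 7.20% of those of Tsc2.

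The mTOR kinase works in complex 1 with RAPTOR and in complex 2 with RICTOR. Mtor had 601 and 436 counts (0.03, -0.15 to 0.22), Rptor 435 and 335 (0.12, -0.09 to 0.33), and Mlst8, the gene of a subunit of both complexes, 269 and 224 (0.23, -0.03 to 0.49). Rictor differed from its partners: it had 836 and 444 counts, scaled counts of 704 and 528, and a log2 ratio of -0.42 (-0.58 to -0.25), which is short of 1.5-fold. The intervals of Rictor and Rptor do not overlap. Rictor has the longest exons of the list (16930 bp, against 13471 for Rptor), and its ratio was -0.27 (-0.44 to -0.11) after correction for length.

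Genes of the 2 inhibitory subunits were level. Akt1s1, which encodes the AKT substrate PRAS40, had 668 and 489 counts (0.05, -0.12 to 0.22). Deptor, whose product binds and restrains mTOR, had 1534 and 1020 counts (-0.09, -0.21 to 0.02). Per kilobase, Deptor stood at 24.8 CPM fed and 22.9 CPM fasted, above Mtor at 8.51 and 8.59 CPM, so that the inhibitor's transcript exceeded that of the kinase in both libraries.

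S6 kinases and the cap-binding machinery are the best known outputs of mTORC1. Rps6kb1 had 829 and 512 counts (-0.20, -0.36 to -0.04) and Rps6kb2 161 and 115 (0.01, -0.35 to 0.37). Eif4e, the gene of the cap-binding protein, had 327 and 230 counts (-0.01, -0.26 to 0.24). Its 2 inhibitors, the 4E-BP genes, both had positive ratios with intervals above 0. Eif4ebp2 had 1054 and 919 counts (0.30, 0.17 to 0.43) and Eif4ebp1 165 and 153 (0.39, 0.06 to 0.72), each short of 1.5-fold. After length correction Eif4ebp2 was at 0.35 (0.22 to 0.48), while the interval of Eif4ebp1, which is a short gene, reached below 0 (0.29, -0.04 to 0.62).

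Among the stress-induced brakes on mTORC1, 1 gene was higher and 1 lower. Ddit4 (chromosome 10, 59949669 to 59951834), also named Redd1, is induced by hypoxia, energy stress and glucocorticoids and acts through the TSC complex. It had 1050 fed and 1244 fasted counts, scaled counts of 884 and 1478, and was 1.67-fold higher (log2 ratio 0.74, 0.62 to 0.86). Of the 4 members past 1.5-fold it had the most reads, and its whole interval lay above 1.5-fold. Length correction gave 0.62 (0.50 to 0.74). Per kilobase it was the second most abundant member, at 85.7 CPM fed and 141 CPM fasted, behind Txnip.

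Sestrins respond to stress and restrain mTORC1 through GATOR2, and some of them sense leucine. Sesn3 (chromosome 9, 14275067 to 14333101), a target of FOXO factors, had 271 counts fed and 108 fasted, scaled counts of 228 and 128, and was 1.78-fold lower (log2 ratio -0.83, -1.16 to -0.50). Its exons are long (15269 bp), and length correction gave -0.69 (-1.02 to -0.36), still past 1.5-fold. Sesn1 had 329 and 204 counts (-0.19, -0.45 to 0.06), and Sesn2, the member induced by ATF4, 186 and 133 (0.01, -0.32 to 0.34). Per kilobase the share of Sesn3 in the family was 11.5% fed and 7.32% fasted, against 53.7% and 53.0% for Sesn1 and 34.8% and 39.6% for Sesn2. As a share of raw reads Sesn3 went from 34.5% (31.2 to 37.9) to 24.3% (20.4 to 28.5), and these intervals do not overlap.

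**Figure D3:**
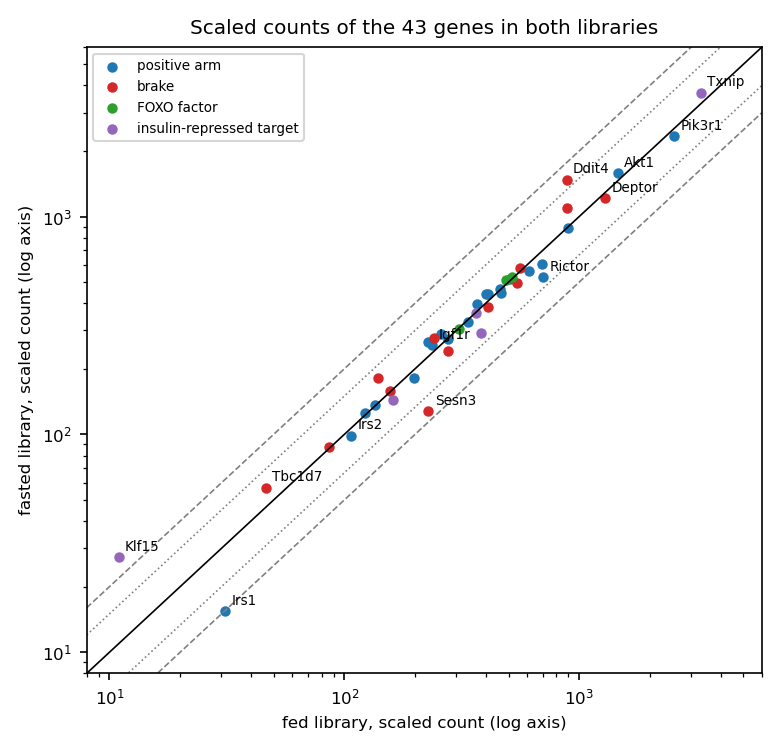
Scaled counts of the 43 genes in the fed (x axis) and the fasted library (y axis), both on log axes, coloured by their part in the pathway. The solid line marks equal levels, and the dotted and dashed lines 1.5-fold and 2-fold. Ddit4 lies high at 884 and 1478 scaled counts, whereas Klf15 and Irs1 lie at the low end, at 10.9 and 27.3 and at 31.1 and 15.4.

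Rag GTPases, which bring mTORC1 to the lysosome when amino acids are present, were level. Rraga had 484 and 370 counts (0.11, -0.09 to 0.31), Rragc 308 and 243 (0.16, -0.09 to 0.40), and Rragd 399 and 275 (-0.04, -0.27 to 0.19). Flcn, the gene of folliculin, which acts on the nucleotide state of RagC and RagD, had 287 and 234 counts (0.20, -0.05 to 0.46). Rragd and Flcn are known targets of the transcription factors TFEB and TFE3, which mTORC1 keeps in the cytoplasm. Both genes, and Rraga and Rragc with them, had intervals that held a ratio of 1.

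The FOXO factor genes spanned the narrowest range of ratios of any role group. Foxo1 had 365 and 257 counts (-0.01, -0.24 to 0.23), Foxo3 617 and 442 (0.02, -0.16 to 0.20) and Foxo4 581 and 430 (0.06, -0.12 to 0.25). All 3 counting intervals lay within 1.5-fold, and scaled counts were, for Foxo3, 519 and 525. Foxo4 was the most abundant per kilobase, at 57.4% of the trio fed and 58.4% fasted, with Foxo3 at 28.1% and 27.6% and Foxo1 at 14.5% and 14.03%.

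The listed targets, which insulin represses through FOXO or by other routes, did not share a direction. Klf15 (chromosome 6, 90462576 to 90475238), a transcription factor gene of the fasting response that promotes amino acid breakdown and is also induced by glucocorticoids, had 13 counts fed and 23 fasted, scaled counts of 10.9 and 27.3. The log2 ratio was 1.32 with an interval from 0.28 to 2.42, a fold between 1.21 and 5.37. Few reads support this value, and in neither library did Klf15 reach 5 CPM.

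Txnip, which encodes a thioredoxin-binding protein that restrains glucose uptake, was the most abundant member. It had 3925 and 3115 counts, 180 and 199 CPM per kilobase, and a log2 ratio of 0.16 (0.10 to 0.23), an interval above 0 but far inside 1.5-fold. The antisense gene Gm15441 covers 19.4% of its exons and had 10 and 8 counts.

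Ccng2, a cyclin gene tied to cell cycle exit and a FOXO target, had 454 and 245 counts (log2 ratio -0.39, -0.62 to -0.16), the opposite sign to Txnip and Klf15. Bcl6, a transcriptional repressor gene, had 191 and 121 counts (-0.16, -0.50 to 0.18). Cited2, the gene of a coregulator of CBP and p300, had 431 and 304 (-0.01, -0.22 to 0.21). The median of the 5 targets was -0.01, against 0.01 for the 38 signalling members. Without Klf15 it was -0.08.

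Set against each other by their part in the pathway, the groups overlapped. Of 22 members that transmit the signal 0 were at least 1.5-fold higher and 1, Irs1, was lower, with a median of 0.00 and a range from -1.01 to 0.23. Of 13 brakes 1 was higher, Ddit4, and 1 lower, Sesn3, with a median of 0.03 and a range from -0.83 to 0.74. Flcn (0.20), described above with the Rag GTPases, was counted among the brakes. Of 3 FOXO factors 0 passed, and of 5 targets 1 was higher, Klf15, and 0 were lower, with a range from -0.39 to 1.32. Over all measured genes 5.11% were higher and 5.05% lower at this threshold, so in groups this small the counts set no group apart. The targets thus spanned negative and positive ratios, as the brakes did, and a shift shared by all targets was not seen. Brakes have shorter exons than signal-transmitting members (medians of 4272 and 7457 bp).

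Exon length moved with the ratios. Across the 43 members the log2 ratio had a Spearman correlation of -0.58 with exon length, and across all measured genes, which come from the same libraries, of -0.24. The 21 shorter members had a median of 0.12 and the 22 longer ones of -0.09. A correction by the running median over exon length brought the correlation among members to -0.22. It left Ddit4, Klf15 and Sesn3 past 1.5-fold and took Irs1 below the call. Of intervals excluding a ratio of 1 it left 7 above and 3 below, from 6 and 6. The matching shares of all measured genes after correction were not computed, so these counts show no lean of the list.

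**Figure D4:**
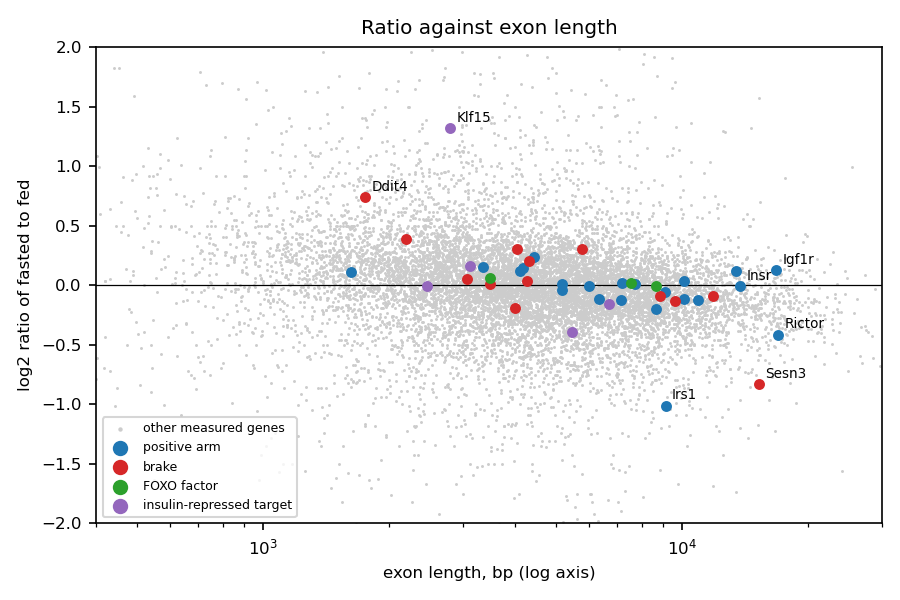
The log2 ratio of fasted to fed (y axis) against the exon length of each gene in bp (x axis, log scale), for all measured genes in that window (grey) and for the 43 members (coloured). Sesn3 (15269 bp) and Rictor (16930 bp) lie low at the long end, and Ddit4 (1755 bp) lies high at the short end.

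Other genes of the same pathway, taken from lists, were mostly within 1.5-fold too. Of 21 measured further insulin and PI3-kinase genes 2 were at least 1.5-fold higher and 1 lower (median -0.01). For this list and those that follow, the shares of all measured genes were 5.11% higher and 5.05% lower at 1.5-fold. Sgk1, a kinase relative of AKT that glucocorticoids induce, had 178 and 278 counts (1.14, 0.86 to 1.42). Grb14, an adaptor gene that inhibits the insulin receptor, had 28 and 35 (0.82, 0.06 to 1.59). Pik3r3, a further regulatory subunit gene of PI3-kinase, was lower, with 74 and 15 counts (-1.81, -2.71 to -0.99). Pik3r3 thus differed more between the libraries than any listed subunit, at a lower level.

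Of 21 measured genes of amino acid sensing 0 passed 1.5-fold in either direction (median -0.03). The GATOR1 gene Depdc5 had a log2 ratio of -0.54 (-0.83 to -0.26). Of 18 mTOR partners and substrates 0 were higher and 1 was lower (median 0.04). That was Lpin1, the gene of a phosphatidate phosphatase that mTORC1 phosphorylates, with 104 and 37 counts (-0.99, -1.58 to -0.44).

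Several further FOXO targets were well past the thresholds. Of 18 measured, 4 were at least 1.5-fold higher and 0 lower, against 5.11% and 5.05% of all measured genes. A positive ratio was seen in 15 (median 0.28), against 47.9% of measured genes. Intervals lay above a ratio of 1 for 8 of the 18 and below it for 2, against 16.7% and 19.2% of measured genes. The list was chosen with earlier results of these data known, so its shares are no independent evidence. Sesn3 and Ccng2, members described above as FOXO targets, are outside this list and had log2 ratios of -0.83 and -0.39. The insulin-repressed targets other than Ccng2 had -0.16 (Bcl6), -0.01 (Cited2), 0.16 (Txnip) and 1.32 (Klf15). Pdk4, which inhibits pyruvate dehydrogenase, had 40 and 880 counts (4.96, 4.50 to 5.45), and Pck1, a gluconeogenic enzyme gene, 14 and 101 (3.35, 2.54 to 4.27). G6pc, the glucose-6-phosphatase gene, had 4 and 20 counts (2.82, 1.24 to 4.83), and the catalase gene Cat 1475 and 1684 (0.69, 0.59 to 0.79). Pdk4 and Cat are also targets of the fatty acid receptors named PPARs, and Pck1, G6pc and Pdk4 respond to glucocorticoids.

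Of 9 measured glucocorticoid-induced genes 6 were at least 1.5-fold higher and 0 lower (median 0.81). This list, too, was chosen with earlier results of these data known. Zbtb16 had 7 and 124 counts (4.64), the metallothionein genes Mt2 and Mt1 had 4.33 and 2.04, and Fkbp5, a chaperone gene that dampens the glucocorticoid receptor, 238 and 631 counts (1.91). Ddit4 and Klf15, the members that were higher, are known to respond to the same hormones. The part of glucocorticoid signalling, and of the enterocyte markers that were higher in the same library, in the ratios of these genes was not tested.

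**Figure D5:**
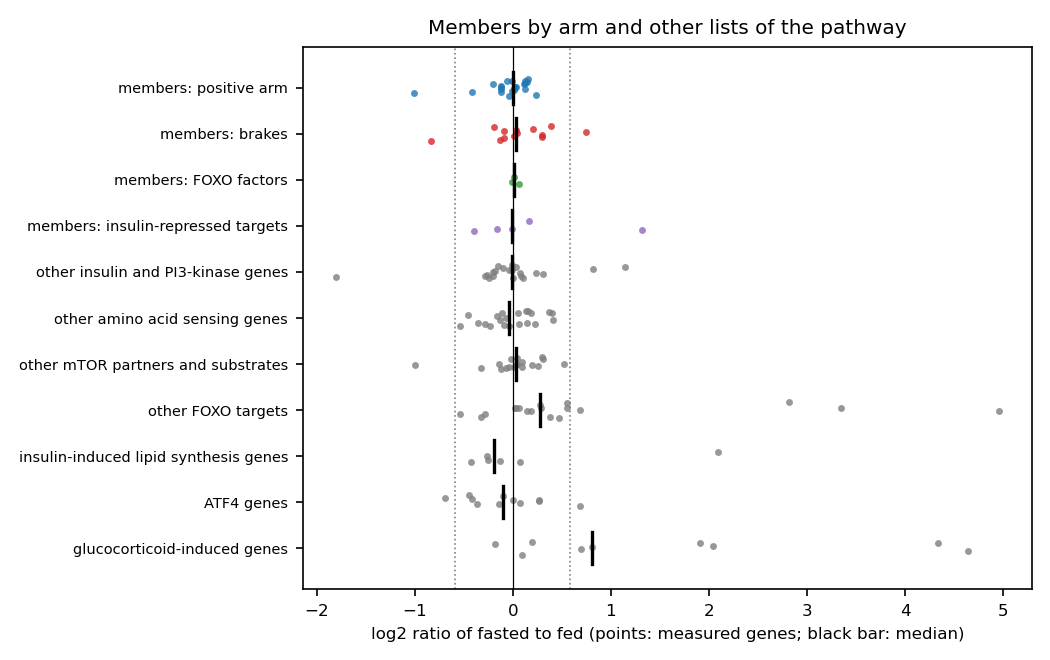
The log2 ratio of fasted to fed of each measured gene (points), by part of the pathway for the 43 members (coloured) and by list for other genes (grey), with black bars for medians and dotted lines at 1.5-fold. Medians of the members' groups lie between -0.01 and 0.03, and those of further FOXO targets and glucocorticoid-induced genes at 0.28 and 0.81.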

How the data were processed

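Per the labels, sorted stem cells of 1 fed and 1 fasted group of mice were profiled with the Illumina TruSeq RNA kit. The deposited values are raw counts per Ensembl gene. A further deposited table holds a signal, the counts divided by 1 factor per library, which matched 100% of values within 0.0051, with whole reads recovered. FastQC, STAR, HTSeq and DESeq and the builds GRCm38 and mm10 are named, without versions or roles, per the submitters' processing notes. No source used here gives the strand setting, and overlapping genes may share reads.

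Symbols, exon lengths (union of exons) and coordinates came from GENCODE release M21 (GRCm38), which matched 45143 of 45706 gene IDs. Counts were scaled by median-of-ratios size factors. Intervals are exact Clopper-Pearson intervals at 95%, from the fasted share of a gene's reads (scipy 1.17.1, pandas 2.3.3), and cover counting error only. TMM and upper-quartile factors came from edgeR 4.0.16. The procedure was tested on simulated data that held counting error only, without variation between mice, sorts or libraries. The members and lists were chosen with earlier results of these data known. All 43 members are named. From other lists, genes past 1.5-fold are named (at most 4, largest first), or else the 2 with the largest ratio. A gene that this rule takes is not reported here. Alternatives were TMM, total-count and upper-quartile scaling, the deposited normalised values, no filter, a minimum of 5 CPM, other thresholds, summed counts and a correction for exon length (a running median over 2001 genes).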

Additional observations from a re-analysis of the deposited data

How the results depend on the processing

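No replicate supports any value, and depth limits Klf15, Irs1 and Tbc1d7 most. Under alternatives 366 values were recomputed, but a change of direction was looked for only in the ratios of Ddit4, Klf15, Irs1 and Sesn3. None of these changed sign under the other scalings, the deposited normalised values or the length correction. A scaling shifts all genes alike, so only the length correction could move genes apart. A minimum of 5 CPM, which drops Klf15 and Irs1, left 0 members higher and 0 lower at 2-fold and 1 higher (Ddit4) and 1 lower (Sesn3) at 1.5-fold. Over all genes it took the 2-fold counts from 302 and 230 to 176 and 111. Upper-quartile factors and the exon length correction left 0 members lower at 2-fold, and the correction left 1 lower at 1.5-fold. A 3-fold threshold left 0 higher and 0 lower. When the interval bound itself had to pass, 0 were higher and 0 lower at 2-fold, and 1 was higher and 0 lower at 1.5-fold. A threshold of 1.3-fold gave 3 higher and 4 lower members in place of 2 and 2. Counts over all measured genes were not computed for these other thresholds or for the interval bound. Under the alternatives, summed counts included, the value lay between -0.01 and 0.05 for all members and for the signalling members. For the targets it lay between -0.09 and 0.10. These values stayed within the counting interval of the middle gene, which is wide and does not measure the spread of a median. Pik3r1 left its interval after length correction, at 0.01. No paired analysis was possible because each group had 1 library.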

Other observations

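Outputs of the pathway beyond FOXO did not share a direction. Of 6 measured lipid synthesis genes that insulin induces, 1 was at least 1.5-fold higher and 0 were lower, with a median log2 ratio of -0.19. A negative ratio was seen in 4 of the 6. Intervals lay below a ratio of 1 for 3 and above it for 1, against 19.2% and 16.7% of measured genes. The higher gene was Me1, a malic enzyme gene that PPARs and NRF2 also control, with 31 fed and 94 fasted counts (log2 ratio 2.10). Srebf1, which encodes the transcription factor of the programme and was chosen after its values were seen, had 1021 and 539 counts (-0.42, -0.58 to -0.27). Of 11 measured genes of ATF4, a factor whose translation mTORC1 and amino acid shortage both raise, 1 was higher and 0 were lower (median -0.10). That was Atf5, with 122 and 139 counts (0.69, 0.32 to 1.05), while Atf4 itself, chosen after its values were seen, had 0.00 (-0.12 to 0.13).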
